A study of Mus musculus with 20 samples.

Results

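Cone transducin is the G protein of cone phototransduction, and its 3 subunit genes are described here across whole mouse retinas of 5 genotypes at postnatal day 2 (P2) and postnatal day 21 (P21). The genes are Gnat2 (alpha subunit), Gnb3 (beta subunit) and Gngt2 (gamma subunit). The rule names them by symbol and uses no measured value, although earlier results of these data were known when it was written. All 3 were present among the 566 genes of the P2 table and among the 1497 genes of the P21 table. The tables share 198 genes and hold 1865 genes in all. In the authors' deposited tables, 566 of 566 and 1497 of 1497 genes had a pair of genotypes with an adjusted p of at most 0.05 and a log2 fold change of 1 or more in size, so a share of changed genes in these tables describes selected genes and not the transcriptome.

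All mice were labelled C57BL/6J. The genotypes were wild type, CrxRip/+ and CrxRip/Rip (1 copy or both copies of Rip, which is a dominant mutant form of Crx, a homeobox gene of photoreceptors), Crx-/- (null for Crx) and Nrl-/- (null for Nrl, a leucine zipper factor needed for rods to form). Each genotype at each age had 2 samples, each pooled from 2 frozen retinas, which gives 20 samples in 10 groups. Nothing in the labels says that the pools of a genotype came from separate litters, so the p values below measure the spread between these samples, which may be partly technical.

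Values are FPKM, fragment counts scaled to transcript length and library size, rounded by the authors to 1 decimal. The depth of each library is unknown. Summed over the table, FPKM ran from 4168.3 to 5777.3 at P2 and from 21569.4 to 55335.3 at P21. In the Nrl-/- samples, Nrl itself was at 0.1 FPKM in both at P2 and at 0.2 FPKM in both at P21. Crx was in the P21 table only, where it stood at 167.9 and 171.4 FPKM in Crx-/- retinas and 350.7 and 343.9 FPKM in wild type, so Crx transcript was still counted in these samples. A difference is given in log2(FPKM + 1) units, and a gene is called higher or lower where limma's adjusted p (Benjamini-Hochberg over the whole table) was under 0.05.

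In cones, light-activated opsin catalyses nucleotide exchange on the transducin alpha subunit, which then leaves the beta-gamma dimer and activates cone phosphodiesterase. Rods use a separate heterotrimer made from Gnat1, Gnb1 and Gngt1. Gnat2 and Gngt2 are textbook cone genes, and Gnb3 is also known from ON bipolar cells. Wild-type mouse retina holds far more rods than cones. Photoreceptors that lack Nrl take on a cone-like identity, dominated by S-cone features. Because whole retina was sequenced, fewer cells of a type and less RNA per cell cannot be told apart in any value below.

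On GRCm38.p6, RefSeq places the Gnat2 gene on the plus strand of chromosome 3 from 108086788 to 108101432, a span given for an entry that lists 2 predicted transcripts besides NM_008141, the transcript of the table. The matching GENCODE transcript starts further in, at 108092789, and has 9 exons and 2054 spliced bases. Gnb3 (NM_013530) lies on the minus strand of chromosome 6 from 124834240 to 124840275, with 10 exons and 1846 bases. Gngt2 (NM_023121) lies on the plus strand of chromosome 11 from 95841772 to 95845734, with 4 exons and only 558 bases. Its span overlaps that of Abi3, an actin regulator gene on the opposite strand, by 705 bases in RefSeq. The GENCODE transcript that matches NM_023121 starts at 95842295 and overlaps Abi3 by 182 bases, and the whole GENCODE gene, which has a longer transcript, by 5261 bases. The libraries were directional, but the strand setting of the authors' counting is not given in the sources used here.

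The cone and rod subunits are related genes, and the coding sequences of the 2 gamma subunits are shown because Gngt2 and its rod counterpart Gngt1 moved in opposite directions at P21. Both run 5′ to 3′ and come from GENCODE transcripts; capitals mark bases that differ between them, or lie opposite a gap, in a pairwise alignment.
Gngt2: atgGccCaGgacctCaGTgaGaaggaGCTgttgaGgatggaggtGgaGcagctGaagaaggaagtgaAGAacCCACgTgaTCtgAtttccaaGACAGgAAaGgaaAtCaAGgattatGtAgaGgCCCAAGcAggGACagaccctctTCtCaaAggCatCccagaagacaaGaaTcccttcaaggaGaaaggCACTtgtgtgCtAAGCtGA
Gngt1: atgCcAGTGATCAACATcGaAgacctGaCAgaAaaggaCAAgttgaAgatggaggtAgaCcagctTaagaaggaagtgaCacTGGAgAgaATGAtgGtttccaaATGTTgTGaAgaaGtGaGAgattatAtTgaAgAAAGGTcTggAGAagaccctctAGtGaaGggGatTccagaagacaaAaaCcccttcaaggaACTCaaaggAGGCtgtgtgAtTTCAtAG
Over 208 aligned bases, Gngt2 and Gngt1 were 67.31% identical, and their longest shared run was 13 bases. Gnat2 and Gnat1 were 73.31% identical over 1053 aligned coding bases, with a longest shared run of 23 bases. Gnb3 and Gnb1 were 75.95% identical over 1023 bases, with a longest shared run of 20 bases. In none of the 3 pairs did any 50-base stretch of the cone coding sequence occur in the rod one (0 windows each).

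CRX and OTX2 are homeodomain proteins known to bind the core GGATTA, or TAATCC on the other strand. RefSeq promoter windows (GRCm38.p6, 250 bases before to 50 bases after a start) were matched for 1 of the 3 members, Gnat2, and for 16 of 21 listed cone pathway and rod transducin genes. The core was present in the Gnat2 window and in 6 of those 16 genes, Gngt1 among them. It was found on either strand in 2320 of 32851 windows of 300 bases, or 7.06%. That share is per window, whereas a listed gene was counted if any of its windows matched, and a gene had up to 4 windows. The stretches that hold it in Gnat2 (chr3:108093035-108093064, plus strand) and Gngt1 (chr6:3993952-3993981, plus strand) are shown with the core in capitals.
Gnat2: gggacaatccccGGATTAggaaggagctct
Gngt1: tcatattaggggGGATTAtgaagaagcttt
The core lies 19 to 14 bases before the start that sets the Gnat2 window, 108093066, and 44 to 39 bases before the one that sets the Gngt1 window, 3994008. The matching GENCODE transcripts start upstream of these sites, so that the core begins 258 bases past the GENCODE start of Gnat2 and 172 bases past that of Gngt1, within an annotated exon of each. A match of letters is a description of the window and not evidence of binding.

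At P2 the 3 subunits were already present at very different levels, and they were lower in unequal measure in retinas with the CrxRip allele. In wild type, mean levels on the per-length FPKM scale were 10.9 ± 1.06 for Gnat2, 104 ± 10.5 for Gnb3 and 181 ± 13.4 for Gngt2 (SD, n = 2). All 3 genes fell in CrxRip/Rip, Gnat2 and Gnb3 fell in CrxRip/+, Gnat2 alone fell in Crx-/-, and Gnat2 and Gnb3 rose in Nrl-/-. That makes 8 of 12 differences from wild type called at P2, 2 higher and 6 lower, and 10 of the 12 had no overlap between the samples.

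**Figure D1:**
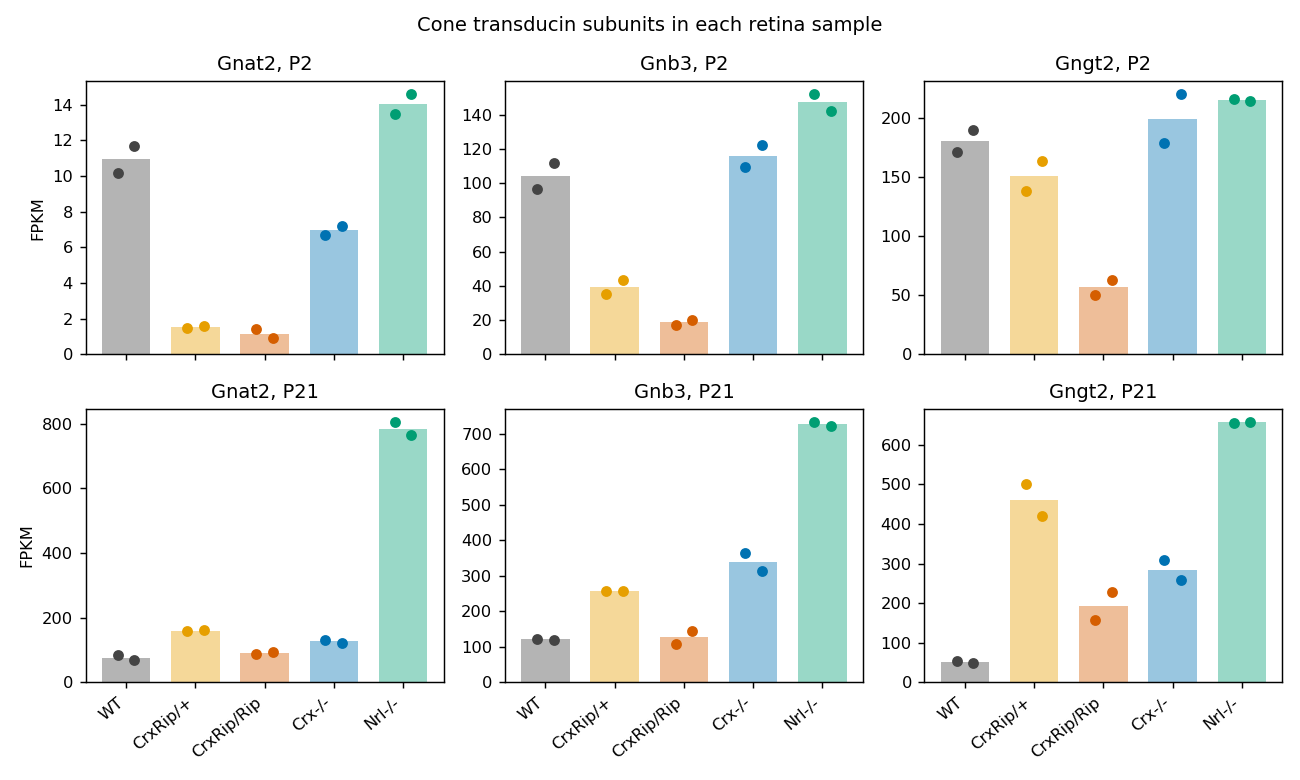
FPKM of Gnat2, Gnb3 and Gngt2 (columns) at P2 (top) and P21 (bottom), with 1 point per sample and a bar at the mean of the 2 samples of each genotype; each panel has its own axis from 0. At P2 the CrxRip/Rip samples are the lowest in every panel, and at P21 the Nrl-/- samples are the highest in every panel.

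Gnat2, the subunit that binds guanine nucleotide and activates the phosphodiesterase, stood at 10.2 and 11.7 FPKM in wild type at P2. It was 1.5 and 1.6 FPKM in CrxRip/+ and 1.4 and 0.9 FPKM in CrxRip/Rip. Crx-/- retinas had 6.7 and 7.2 FPKM and Nrl-/- retinas 13.5 and 14.6 FPKM. No genotype overlapped another, and the order was Nrl-/-, wild type, Crx-/-, CrxRip/+ and CrxRip/Rip, with the CrxRip pair only 1 rounding step of the table apart at its nearest samples. Against wild type, Gnat2 fell by 2.23 (SE 0.12) in CrxRip/+, to 14.2% of the wild-type mean (limma adjusted p = 1.414e-05). It fell by 2.48 in CrxRip/Rip, to 10.5% (adjusted p = 3.461e-06), and by 0.59 in Crx-/-, to 63.5% (adjusted p = 0.01194). The Nrl-/- difference was 0.33 (adjusted p = 0.03277). At levels this low the pseudocount shrinks the log2 differences of Gnat2, which are smaller than its percentages of the wild-type mean imply.

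2 of these Gnat2 calls were fragile. The Crx-/- call was lost without wild-type replicate 2 (-0.50, adjusted p = 0.07221) and without Crx-/- replicate 1 (-0.54, adjusted p = 0.06707). The Nrl-/- call was lost without wild-type replicate 1 (0.24, adjusted p = 0.1742), without Nrl-/- replicate 1 (0.39, adjusted p = 0.05647) and without Nrl-/- replicate 2 (0.28, adjusted p = 0.14). It was also lost with a pseudocount of 0.1 (0.36, adjusted p = 0.09653). Rescaling the libraries made it larger, at 1.33 with median-of-ratios factors (limma adjusted p = 1.745e-05) and 0.50 with the authors' own scaling (adjusted p = 0.005211). The median-of-ratios factors came from 555 genes of this table, all selected as changed, with 64.7% of the table called lower in Nrl-/-. In log2 they were 0.276 and 0.289 in wild type and -0.749 and -0.81 in Nrl-/-. They therefore raise Nrl-/- differences across the table, so the larger value is no independent support for the call.

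Gnb3, the beta subunit, was at 96.8 and 111.7 FPKM in wild type at P2. CrxRip/+ retinas had 35.1 and 43.2 FPKM and CrxRip/Rip retinas 17.2 and 20.3 FPKM. Crx-/- retinas had 109.2 and 122.4 FPKM, which overlap wild type, and Nrl-/- retinas had 152.0 and 142.3 FPKM, above every other sample. Gnb3 thus fell in steps with the number of Rip copies and was not called lower in the Crx null. The difference was -1.39 (SE 0.15) in CrxRip/+ (limma adjusted p = 0.0006281) and -2.41 in CrxRip/Rip (adjusted p = 1.081e-05). In Crx-/- it was 0.15, with a 95% interval from -0.20 to 0.51 (adjusted p = 0.4598). Nrl-/- retinas were higher by 0.50 (adjusted p = 0.01521), a call lost without wild-type replicate 1 (0.39, adjusted p = 0.08882) and without Nrl-/- replicate 1 (0.45, adjusted p = 0.07185). With median-of-ratios factors it was 1.55 (adjusted p = 6.923e-05), and with the authors' own scaling 0.67 (adjusted p = 0.003402).

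Gngt2, the gamma subunit that anchors the complex to the membrane through its lipid tail, was at 171.1 and 190.0 FPKM in wild type at P2. CrxRip/+ retinas had 138.6 and 164.0 FPKM, and CrxRip/Rip retinas had 50.4 and 63.4 FPKM. Crx-/- retinas had 178.9 and 220.5 FPKM and Nrl-/- retinas 216.7 and 214.4 FPKM. The CrxRip/Rip samples lay far below all others, while Crx-/- overlapped both wild type and Nrl-/-. The CrxRip/Rip difference was -1.66 (SE 0.17; limma adjusted p = 0.0001252), to 31.5% of the wild-type mean. The CrxRip/+ difference was -0.26, with a 95% interval from -0.66 to 0.14 (adjusted p = 0.4265), although both of its samples were below both wild-type samples. The Crx-/- and Nrl-/- differences were 0.14 (adjusted p = 0.5455) and 0.26 (adjusted p = 0.1981), and the latter passed under both rescalings of the libraries (1.31 with median-of-ratios factors, 0.43 with the authors' own scaling).

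These P2 counts stand against a background that varied widely between genotypes. In CrxRip/+, where 2 of the 3 members were called, 16.4% of the 566 genes were called. In CrxRip/Rip, with all 3 called, the share was 27.0%. In Crx-/-, with 1 of 3 called, it was 29.9%. In Nrl-/-, with 2 of 3 called, it was 83.6%, so the Nrl-/- calls of the members are no more frequent than those of the table. Calls in the higher direction were 3.71% of the table for CrxRip/+, 5.83% for CrxRip/Rip, 9.19% for Crx-/- and 18.9% for Nrl-/-. Samples did not overlap between mutant and wild type in 52.1% of the genes for CrxRip/+, 52.8% for CrxRip/Rip, 74.2% for Crx-/- and 91.9% for Nrl-/-. The median difference of all genes in Nrl-/- against wild type at P2 was -0.765, and median-of-ratios rescaling moved it to -0.044, so positive member differences in Nrl-/- run against the table's median under the FPKM scale.

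At P21 no subunit was called lower than wild type in any mutant, and 11 of the 12 differences were called higher. Gngt2 rose in all 4 mutants, from 3.81-fold in CrxRip/Rip to 13.0-fold in Nrl-/-. Gnat2 and Gnb3 each rose 2.12-fold in CrxRip/+ and rose most in Nrl-/-, by 10.4-fold and 6.02-fold. In CrxRip/Rip their means were 1.21-fold and 1.05-fold the wild-type means.

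Gngt2 was the least abundant of the 3 in wild type at P21, at 52.6 and 48.8 FPKM. CrxRip/+ retinas had 500.8 and 421.3 FPKM and CrxRip/Rip retinas 157.2 and 229.1 FPKM. Crx-/- retinas had 307.7 and 259.6 FPKM and Nrl-/- retinas 655.3 and 658.0 FPKM. No genotype overlapped another, and wild type was the lowest of the 5. The differences were 3.16 (SE 0.18) for CrxRip/+ (limma adjusted p = 1.524e-06), 1.88 for CrxRip/Rip (1.997e-05), 2.46 for Crx-/- (4.654e-06) and 3.67 for Nrl-/- (7.553e-07). Ranked from the highest difference, Gngt2 was number 6 of 1497 genes for both CrxRip/+ and Nrl-/-, number 23 for Crx-/- and number 50 for CrxRip/Rip. Abi3, whose gene overlaps Gngt2, was at 1.5 and 1.1 FPKM in wild type and at most 15.2 FPKM in any sample. The part of this overlap in the Gngt2 values was not tested.

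Gnat2 stood at 83.0 and 68.2 FPKM in wild type at P21. CrxRip/+ retinas had 157.8 and 162.0 FPKM, CrxRip/Rip retinas 88.3 and 94.3 FPKM and Crx-/- retinas 131.8 and 121.8 FPKM. Nrl-/- retinas had 805.7 and 764.0 FPKM. The samples of the 5 genotypes did not overlap, and Nrl-/- was far above the rest. The differences were 1.08 (SE 0.11) in CrxRip/+ (limma adjusted p = 3.951e-05), 0.74 in Crx-/- (0.0002495) and 3.37 in Nrl-/- (8.361e-08). The CrxRip/Rip difference of 0.28 passed narrowly (adjusted p = 0.04112). It was not called under the authors' scaling (0.05, adjusted p = 0.6626) or when only the samples of CrxRip/Rip and wild type were fitted (adjusted p = 0.1207). In the authors' deposited table its log2 fold change was 0.05 with an adjusted p of 0.911. With single samples left out it ranged from 0.14 without wild-type replicate 2 (adjusted p = 0.2992) to 0.41, the call being lost in 9 of the 10 cases.

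Gnb3 was at 122.8 and 119.1 FPKM in wild type at P21, the most abundant of the 3 there. CrxRip/+ retinas had 256.0 and 257.5 FPKM, CrxRip/Rip retinas 108.8 and 144.0 FPKM, and Crx-/- retinas 364.6 and 312.0 FPKM. Nrl-/- retinas had 732.8 and 722.3 FPKM. Only CrxRip/Rip overlapped wild type. The differences were 1.08 (SE 0.13) in CrxRip/+ (limma adjusted p = 0.0001433), 1.47 in Crx-/- (1.822e-05) and 2.58 in Nrl-/- (1.025e-06). In CrxRip/Rip the difference was 0.05, with a 95% interval from -0.26 to 0.36 (adjusted p = 0.7458), and it turned to -0.15 without CrxRip/Rip replicate 2 and to -0.17 under the authors' scaling.

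**Figure D2:**
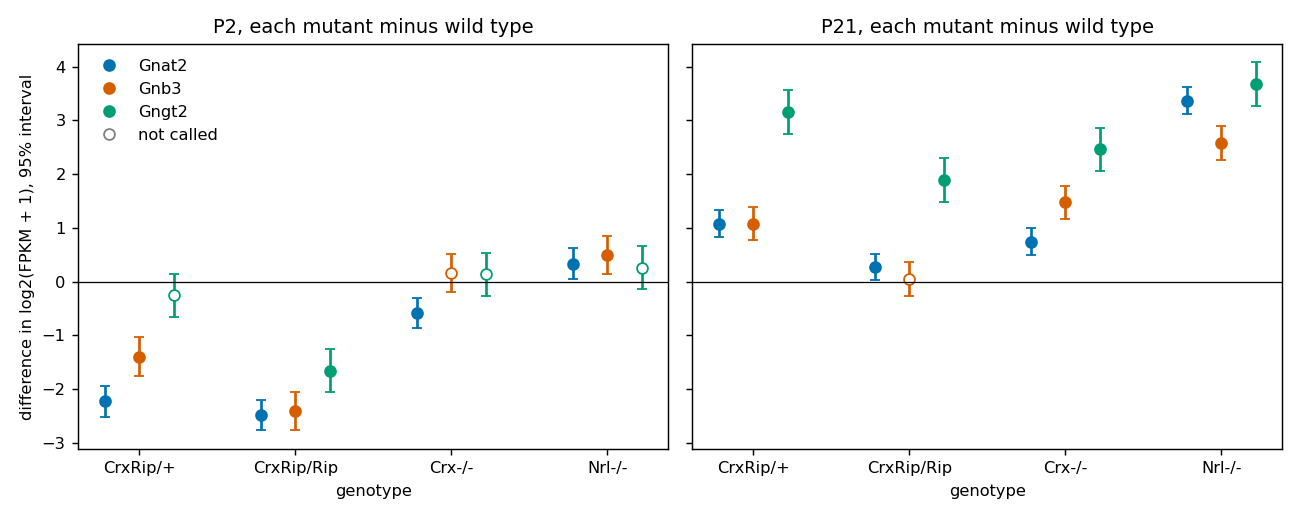
Difference of each mutant from wild type in log2(FPKM + 1), at P2 (left) and P21 (right), for Gnat2, Gnb3 and Gngt2; bars are 95% intervals from limma, and open points were not called. Points in CrxRip/+ and CrxRip/Rip lie below 0 at P2 and above 0 at P21, and Gngt2 is the highest of the 3 in every mutant at P21.

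Most genes of the P21 table differ from wild type in each mutant, which sets how the counts read. All 3 members were called in CrxRip/+, against 74.5% of the 1497 genes. In CrxRip/Rip 2 of 3 were called, against 80.6%. In Crx-/- and Nrl-/- all 3 were called, against 81.3% and 72.2%. Calls in the higher direction alone made up 39.5% of the table for CrxRip/+, 36.3% for CrxRip/Rip, 39.8% for Crx-/- and 40.4% for Nrl-/-. Samples did not overlap in 11 of the 12 member comparisons, against 87.0% of the table for CrxRip/+, 89.4% for CrxRip/Rip, 93.4% for Crx-/- and 89.5% for Nrl-/-. The number of calls thus does not set the members apart from the table.

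Levels at the 2 ages come from tables that were scaled separately, so they were not tested against each other, and the ratios that follow are of means. In wild type, Gnat2 was 6.90 times as high at P21 as at P2, Gnb3 was 1.16 times as high, and Gngt2 was 3.56 times as high at P2 as at P21. Gngt2 was therefore the most abundant subunit of wild-type retina at P2 and the least abundant at P21. In every mutant the P21 mean of Gngt2 was above its P2 mean, by 3.05 times in CrxRip/+, 3.39 times in CrxRip/Rip, 1.42 times in Crx-/- and 3.05 times in Nrl-/-. Gnat2 had the widest spread, with a ratio of 103 in CrxRip/+ and 79.4 in CrxRip/Rip, both against P2 levels below 2 FPKM. In the mutants the Gnb3 ratios lay between 2.92 in Crx-/- and 6.74 in CrxRip/Rip.

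Among the mutants at P2, CrxRip/Rip was compared with CrxRip/+ first. From CrxRip/+ to CrxRip/Rip, Gnb3 fell by 1.02 (limma adjusted p = 0.003181) and Gngt2 fell by 1.40 (adjusted p = 0.00138). The Gnat2 difference was -0.26 (95% interval -0.54 to 0.03; adjusted p = 0.2694). For Gnb3 this step was smaller than that from wild type to CrxRip/+ (-1.39), and for Gngt2 it was larger (-0.26), and the difference between steps was not tested. The comparison called 2 of 3 members, against 14.1% of the table called and 11.3% called lower. The Gnb3 call was lost when only these 4 samples were fitted (adjusted p = 0.05754).

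The CrxRip genotypes lay below the Crx null at P2. CrxRip/+ differed from Crx-/- by -1.64 in Gnat2 and -1.55 in Gnb3 (limma adjusted p = 9.964e-05 and 0.0004672). For Gngt2 the difference was -0.40 (adjusted p = 0.1224), so 2 of 3 members were called, against 28.6% of genes called and 12.5% called lower. CrxRip/Rip was below Crx-/- in all 3 members, by -1.90 in Gnat2, -2.57 in Gnb3 and -1.79 in Gngt2. Here 41.3% of genes were called and 23.1% called lower. The pseudocount shrinks the Gnat2 value at these low levels. The ratio of means was 0.166 for Gnat2, 0.162 for Gnb3 and 0.285 for Gngt2. Every Crx mutant was compared with Nrl-/- as well. Crx-/- was lower in Gnat2 (-0.92, adjusted p = 0.0002951), with 1 of 3 members and 78.8% of genes called and 18.9% called lower. With median-of-ratios rescaling, whose factors come from the selected genes of this table, all 3 were called lower there. Gnb3 then differed by -1.21 (limma adjusted p = 0.0003786) and Gngt2 by -0.99 (adjusted p = 0.003118). The Gnb3 difference, -0.34 as fitted (adjusted p = 0.06751), was also called under the authors' scaling (-0.50, adjusted p = 0.01641), with only the 2 genotypes fitted (adjusted p = 0.03568), with no variance trend (adjusted p = 0.04705) and with the replicate block (adjusted p = 0.0319). All 3 members were lower in CrxRip/+ and in CrxRip/Rip than in Nrl-/-, where 85.7% and 89.2% of genes were called and 24.0% and 28.3% were called lower. The Gngt2 call in CrxRip/+ (-0.51, adjusted p = 0.02169) was lost without CrxRip/+ replicate 1 (-0.39, adjusted p = 0.1273), without Nrl-/- replicate 1 (adjusted p = 0.07625) and without Nrl-/- replicate 2 (adjusted p = 0.07031). In all, 14 of 18 differences between mutants were called at P2.

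At P21 all 18 differences between mutants were called. The second Rip copy again went with lower levels. From CrxRip/+ to CrxRip/Rip the differences were -0.80 in Gnat2, -1.03 in Gnb3 and -1.27 in Gngt2 (limma adjusted p = 0.0006365, 0.0005822 and 0.0007729), with 47.0% of genes called and 35.9% called lower. CrxRip/Rip was also below Crx-/-, by -0.47 in Gnat2, -1.42 in Gnb3 and -0.57 in Gngt2, with 53.4% of genes called and 33.9% called lower. The Gngt2 call there (adjusted p = 0.02542) was lost without CrxRip/Rip replicate 1 (-0.30, adjusted p = 0.1136) and without Crx-/- replicate 1 (-0.45, adjusted p = 0.1524), with median-of-ratios rescaling (-0.40, adjusted p = 0.07152) and with only the 2 genotypes fitted (adjusted p = 0.1351). Nrl-/- was above Crx-/- and both CrxRip genotypes in every subunit, with 65.1%, 48.8% and 66.8% of genes called and 39.4%, 27.7% and 45.6% called lower than in Nrl-/-. The smallest of those 9 differences, Gngt2 in CrxRip/+ against Nrl-/- (-0.51, adjusted p = 0.04143), was lost in 7 of 10 fits with a sample left out, with its value nearest 0 without CrxRip/+ replicate 2 (-0.39, adjusted p = 0.1958).

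The comparison of CrxRip/+ with Crx-/- at P21 split the subunits in the main fit. Gnat2 and Gngt2 were higher in CrxRip/+, by 0.33 (limma adjusted p = 0.02965) and 0.70 (adjusted p = 0.01065), and Gnb3 was lower, by -0.39 (adjusted p = 0.03873). Samples of the 2 genotypes did not overlap in any of the 3 genes or in 73.4% of the table. In this comparison 52.6% of genes were called, 29.9% higher and 22.7% lower. The calls were close to the threshold. In the authors' deposited table only Gngt2 passed, with a log2 fold change of 0.71 and an adjusted p of 5.11e-07. There Gnat2 was at 0.33 with an adjusted p of 0.103, and Gnb3 at -0.40 with an adjusted p of 0.0622. With a sample of either genotype left out, the Gnat2 difference lay between 0.28 without Crx-/- replicate 2 (adjusted p = 0.1436) and 0.39 without Crx-/- replicate 1 (adjusted p = 0.0573), and the call was lost in all 4 such fits. It was 0.21 with median-of-ratios rescaling and not called (adjusted p = 0.1068). The Gnb3 call was lost in 7 of 10 fits with a sample left out, with its value nearest 0 without Crx-/- replicate 1 (-0.28, adjusted p = 0.2173), and with only the 2 genotypes fitted (adjusted p = 0.05926). The Gngt2 call was lost without CrxRip/+ replicate 1 (0.57, adjusted p = 0.06388) and without Crx-/- replicate 2 (0.58, adjusted p = 0.07785).

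A heterotrimer needs its subunits together, and the ratio of 1 subunit to another within a sample does not depend on how libraries were scaled, apart from the pseudocount. 3 ratios at each age were tested for a difference among the 5 genotypes with an exact permutation test over all 945 ways to split 10 samples into 5 pairs, in which the smallest possible p is 0.001058. All 6 passed after Benjamini-Hochberg adjustment over the 6. The test does not say which genotypes differ, or whether a ratio differs from 1. At each age the smallest p was that of the Gnb3 to Gngt2 ratio. The tests used differences in log2(FPKM + 1), and the ratios below are of FPKM.

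**Figure D3:**
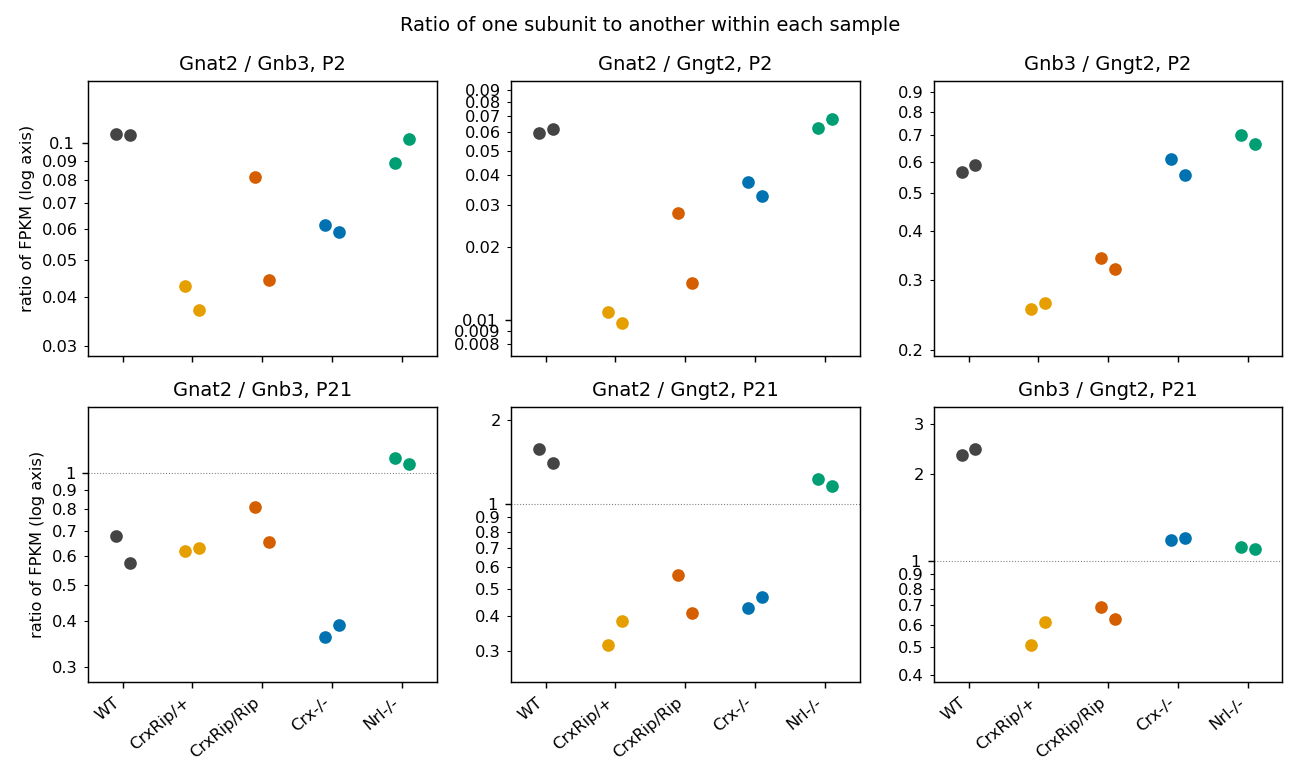
Ratio of FPKM between pairs of subunits in each sample, at P2 (top) and P21 (bottom), on log axes that differ between panels; each genotype has 2 points, and the dotted line in the P21 panels marks equal levels. In the Gnb3 to Gngt2 panel at P21 the wild-type samples stand above 2 and the mutant samples at 1.20 or less.

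At P21 the Gnb3 to Gngt2 ratio was 2.33 and 2.44 in wild type. It was 0.511 and 0.611 in CrxRip/+, 0.692 and 0.629 in CrxRip/Rip, 1.18 and 1.20 in Crx-/- and 1.12 and 1.10 in Nrl-/-. The ratio differed among the genotypes (exact permutation p = 0.001058, adjusted 0.006349). On the FPKM scale, wild type alone had more beta than gamma by a wide margin. The CrxRip genotypes had less beta than gamma, and both nulls were near equality. The Gnat2 to Gngt2 ratio was 1.58 and 1.40 in wild type and 1.23 and 1.16 in Nrl-/-, and lay between 0.315 and 0.562 in the 6 other samples (exact permutation p = 0.005291, adjusted 0.008889). The Gnat2 to Gnb3 ratio was 0.676 and 0.573 in wild type, lowest in Crx-/- at 0.361 and 0.390, and above 1 in Nrl-/- alone, at 1.10 and 1.06 (exact permutation p = 0.007407, adjusted 0.008889). As a share of the summed FPKM of the 3 genes, Gngt2 made up 20.4% and 20.7% in wild type, 54.8% and 50.1% in CrxRip/+, 44.4% and 49.0% in CrxRip/Rip, 38.3% and 37.4% in Crx-/- and 29.9% and 30.7% in Nrl-/-.

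At P2 the gamma subunit was the most abundant in every genotype. The Gnb3 to Gngt2 ratio was 0.566 and 0.588 in wild type, 0.253 and 0.263 in CrxRip/+, 0.341 and 0.320 in CrxRip/Rip, 0.610 and 0.555 in Crx-/- and 0.701 and 0.664 in Nrl-/- (exact permutation p = 0.003175, adjusted 0.008889). Both CrxRip genotypes were again the lowest. Gnat2 made up 3.67% and 3.73% of the summed FPKM in wild type and only 0.856% and 0.766% in CrxRip/+. The Gnat2 to Gngt2 ratio differed among genotypes (exact permutation p = 0.007407, adjusted 0.008889). The Gnat2 to Gnb3 ratio passed narrowly (exact permutation p = 0.04339, also after adjustment) and was lost in 8 of 10 cases with a sample left out, with exact p from 0.06138 to 0.1037.

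Other cone pathway genes were read beside the members at P21. Of 18 other listed cone pathway genes, all of which were in the P21 table, 3 rose and 12 fell in CrxRip/+, 3 rose and 15 fell in CrxRip/Rip, 4 rose and 11 fell in Crx-/-, and 10 rose and 5 fell in Nrl-/-. Their median differences were -1.28, -2.47, -1.51 and 1.45, beside 0.13, -0.14, -0.04 and 0.17 over all 1497 genes. Of these genes, Rcvrn, Grk1, Guca1a, Gucy2e, Gucy2f, Rgs9, Rgs9bp and Gnb5 also serve rods, and these 8 made up most of the falls: all 8 fell in both CrxRip genotypes, 7 in Crx-/- and 5 in Nrl-/-, and 0 rose. The other 10 were mixed, with 3 higher and 4 lower in CrxRip/+, 3 higher and 7 lower in CrxRip/Rip and 4 of each in Crx-/-, while all 10 rose in Nrl-/-. The split by rod use was made after the values were seen. Calls in the lower direction made up 35.0%, 44.3%, 41.5% and 31.8% of the table in the same order. Ranked with the 18, Gngt2 was first of 21 in CrxRip/+ and in Crx-/-, number 2 in CrxRip/Rip and number 5 in Nrl-/-. Gnb3 was number 2 in Crx-/-, 5 in CrxRip/+, 6 in CrxRip/Rip and 10 in Nrl-/-. Gnat2 was number 6 in CrxRip/+ and in Crx-/-, number 5 in CrxRip/Rip and number 7 in Nrl-/-.

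**Figure D4:**
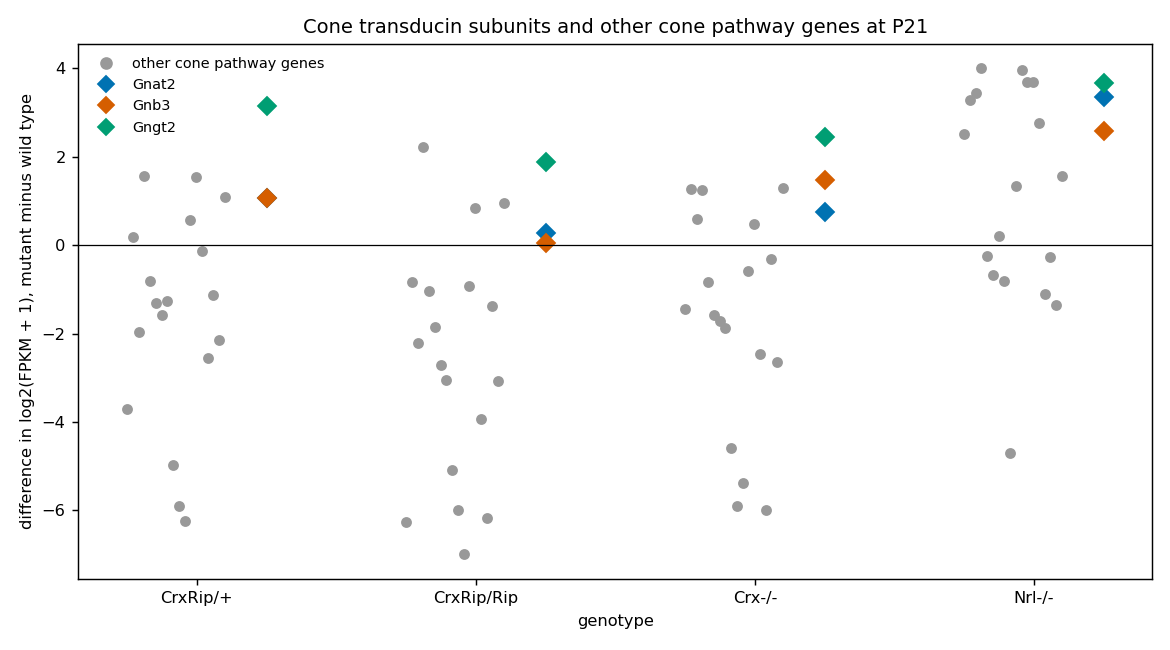
Difference from wild type in log2(FPKM + 1) at P21 for 18 other cone pathway genes (grey, 1 point each) and the 3 transducin subunits (diamonds) in each mutant. Gngt2 lies at or near the top in the Crx mutants, and Gnat2 is hidden by Gnb3 in CrxRip/+, where both were 1.08.

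The short-wavelength opsin, cone arrestin and recoverin were among the genes that fell. Opn1sw, the short-wavelength cone opsin, was at 164.5 and 141.0 FPKM in wild type at P21 and at 0.2 FPKM in both CrxRip/Rip samples (difference -7.00). Arr3, cone arrestin, was at 122.0 and 118.2 FPKM in wild type and at 0.4 and 0.8 FPKM in CrxRip/Rip (-6.25). Rcvrn, recoverin, which rods also express, was at 531.0 and 520.9 FPKM in wild type and at 4.0 and 9.8 FPKM in CrxRip/Rip (-6.16). In the same CrxRip/Rip samples Gngt2 was 157.2 and 229.1 FPKM. In Nrl-/- retinas Opn1sw reached 2501.0 and 2298.6 FPKM, and there the members and the opsin rose alike in direction.

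5 other genes of the list were called higher in at least 1 Crx mutant at P21, and they were named after their values were seen. Cngb3, a subunit of the cone cyclic nucleotide-gated channel, was called higher in CrxRip/+ (1.56), CrxRip/Rip (2.22) and Crx-/- (1.26). Slc24a2, the cone sodium-calcium-potassium exchanger, was called higher in the same 3 genotypes (1.08, 0.96 and 1.29). Pde6c, the catalytic subunit of cone phosphodiesterase, was called in CrxRip/+ (1.54) and CrxRip/Rip (0.84), while in Crx-/- the difference was 0.48 (limma adjusted p = 0.09478). Cnga3, the other subunit of that channel, was called higher in Crx-/- (0.59) and lower in CrxRip/+ (-1.95) and CrxRip/Rip (-2.22). Ccdc136 was called higher in Crx-/- (1.27) and lower in CrxRip/Rip (-0.82), with a difference of 0.18 in CrxRip/+ (limma adjusted p = 0.2298). Summed FPKM of the 7 cone markers fixed for these cells was 515.8 and 476.8 in wild type, between 74.6 and 296.4 in the 3 Crx mutants and 4570.1 and 4386.5 in Nrl-/-. Of those 7 markers, 2 were called higher in each Crx mutant, 4 were called lower in CrxRip/+ and Crx-/- and 5 in CrxRip/Rip, and all 7 were called higher in Nrl-/-.

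At P2, 10 of the 18 cone pathway genes were in the table. All 10 fell in CrxRip/+ and in CrxRip/Rip, as Gnat2 and Gnb3 did. In Crx-/- 1 rose and 5 fell, and in Nrl-/- 4 rose and 1 fell (9 and 0 after median-of-ratios rescaling). Median differences were -1.23, -1.94, -0.37 and 0.15, beside -0.02, -0.06, -0.14 and -0.77 over all 566 genes, of which 12.7%, 21.2%, 20.7% and 64.7% were called lower. Opn1sw fell from 40.6 and 43.0 FPKM in wild type to 0.1 FPKM in both CrxRip/Rip samples. Pde6h, the inhibitory gamma subunit of cone phosphodiesterase, was at 7.0 and 8.6 FPKM in wild type and listed at 0 in both CrxRip/Rip samples.

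Rod transducin moved the other way at P21. All 3 rod subunits were lower in all 4 mutants, and the gamma subunit lost least. Gnat1 was at 4373.3 and 4352.0 FPKM in wild type and its mean was between 0.30 and 9.20 FPKM in the mutants. Gnb1 was at 1365.6 and 1271.1 FPKM in wild type and between 58.7 and 123.5 FPKM in the mutants. Gngt1 was at 516.1 and 483.1 FPKM in wild type, but still at 254.8 and 210.8 FPKM in CrxRip/+, 137.7 and 149.7 FPKM in CrxRip/Rip, 146.6 and 128.7 FPKM in Crx-/- and 231.7 and 226.6 FPKM in Nrl-/-. The mutants thus retained 27.6% to 46.6% of the wild-type mean of Gngt1, and at most 0.211% of that of Gnat1. The largest differences were -11.72 for Gnat1 in CrxRip/Rip, -4.46 for Gnb1 in Nrl-/- and -1.85 for Gngt1 in Crx-/-.

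Of the rod genes only Gngt1 was in the P2 table, at 11.0 and 13.9 FPKM in wild type and 0.4 and 0.5 FPKM in Nrl-/- (difference -3.21). All 10 rod markers were lower in all 4 mutants at P21, with a summed FPKM of 17624.5 and 16597.0 in wild type and 336.1 to 1525.5 in the mutants. FPKM is relative to all mapped fragments of a library, and the part of this fall in the FPKM of the members was not tested. The authors' own scaling lowers every P21 difference from wild type by 0.22 in CrxRip/+, 0.23 in CrxRip/Rip and Crx-/- and 0.11 in Nrl-/-, and the 10 calls other than Gnat2 in CrxRip/Rip were kept under it.

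Other G protein genes gave no common direction. The P21 table held 8 of them besides the members, and 2 rose and 5 fell in CrxRip/+, 3 rose and 5 fell in CrxRip/Rip and Crx-/-, and 1 rose and 4 fell in Nrl-/-. The 8 include the 3 rod subunits and Gnb5, already counted above, and all of these were called lower in every Crx mutant. Of the whole table, 39.5% was called higher and 35.0% lower in CrxRip/+, and 36.3% and 44.3% in CrxRip/Rip. The shares were 39.8% and 41.5% in Crx-/-, and 40.4% and 31.8% in Nrl-/-. Gnb2, a widely expressed beta subunit, was called higher in all 4 mutants, at 26.9 and 27.2 FPKM in wild type and 89.9 and 85.6 FPKM in Crx-/-, and it was named after its values were seen. Of 12 genes listed for the handling of transducin, 8 were in the P21 table, and none was called higher in a Crx mutant. In that list 7 fell in CrxRip/+, 8 in CrxRip/Rip and 6 in Crx-/-, while 1 rose and 5 fell in Nrl-/- (0 and 7 after median-of-ratios rescaling). The gene that rose in Nrl-/- was Aipl1 (0.58, limma adjusted p = 0.004929), which is a chaperone of phosphodiesterase and not of transducin. Pdc, phosducin, which binds the beta-gamma dimer, was at 1210.3 and 1380.1 FPKM in wild type and 172.2 and 220.2 FPKM in CrxRip/Rip (-2.72). Gpsm2, which binds inhibitory alpha subunits, was at 52.1 and 48.2 FPKM in wild type and 4.7 and 3.3 FPKM in CrxRip/Rip (-3.37). Rgs9bp, the membrane anchor of the complex that speeds GTP hydrolysis by transducin, was at 143.2 and 145.2 FPKM in wild type and 18.5 and 14.1 FPKM in CrxRip/Rip (-3.08).

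At P2 the handling list had 3 genes in the table, of which 2 fell in CrxRip/+, all 3 fell in CrxRip/Rip, 0 were called in Crx-/-, and 1 fell and 0 rose in Nrl-/- (1 and 2 after median-of-ratios rescaling). The gene that fell in Nrl-/- was Pdc, at 129.4 and 155.5 FPKM in wild type and 2.8 and 2.9 FPKM in Nrl-/- (-5.21). Aipl1, a chaperone of phosphodiesterase, was at 13.9 and 14.0 FPKM in wild type and 3.2 and 3.8 FPKM in CrxRip/Rip (-1.74). Of 13 listed photoreceptor transcription factors, 10 were in the P21 table, where 3 rose and 4 fell in CrxRip/+, 4 rose and 5 fell in CrxRip/Rip, 4 rose and 4 fell in Crx-/- and 5 rose and 4 fell in Nrl-/- (4 and 5 after median-of-ratios rescaling). Nrl fell to 0.1 and 0.2 FPKM in CrxRip/Rip at P21, from 466.1 and 427.6 FPKM in wild type.

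Because Gnb3 is also known from ON bipolar cells, markers of other cells were read beside it. Of 11 ON bipolar markers only Prkca was in the P21 table, which holds only genes selected as changed. It was at 36.6 and 41.0 FPKM in wild type and between 18.7 and 35.3 FPKM in the mutants, below wild type in every mutant sample. The P2 table held Pcp2 and Trpm1. Pcp2 was at 1.4 and 1.9 FPKM in wild type, 6.5 and 5.3 FPKM in Nrl-/- and between 1.3 and 2.7 FPKM in the Crx mutants. Trpm1 was at 0.9 and 0.7 FPKM in wild type and 0.7 and 0.8 FPKM in Nrl-/-. At P21 the other bipolar genes Cabp5 and Lhx4 summed to 37.9 and 51.5 FPKM in wild type and 184.0 and 177.6 FPKM in Nrl-/-. In the Crx mutants the sum was between 31.0 and 67.1 FPKM. In CrxRip/Rip, Cabp5 was lower, at 19.4 and 23.2 FPKM against 32.5 and 45.6 FPKM in wild type. Lhx4 was higher there, at 11.6 and 11.5 FPKM against 5.4 and 5.9 FPKM. In CrxRip/+ and Crx-/- both genes were above wild type in every sample. At P21 the tables held 0 of the 5 Müller glia, 5 amacrine and 5 ganglion cell markers. Pigment epithelium markers, 4 of 5 in the P21 table, summed to 6.3 and 15.3 FPKM in wild type and to between 27.8 and 60.6 FPKM in the mutants, all above wild type. The part of these cells in the member differences was not tested.

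Across the 10 samples of an age, the members followed each other unevenly, which is given as a description of points that share libraries and genotypes. At P2 Pearson's r of log2(FPKM + 1) was 0.94 between Gnat2 and Gnb3, 0.92 between Gnb3 and Gngt2 and 0.77 between Gnat2 and Gngt2. At P21 the same pairs gave 0.92, 0.82 and 0.77. Genes outside the trimer followed a member more closely than its partners did. At P21, 94 genes with a mean of at least 5 FPKM had a higher r with Gnat2 than Gngt2 had.

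At P2 the genes most like each member included other cone and photoreceptor genes. Gnb3 was followed most closely by Ccdc136 (r = 0.99), and Gngt2 by Aipl1 (0.98) and Ppef2, a photoreceptor phosphatase (0.97). Parvb, Ampd2 and Ccdc136 were nearest to Gnat2 (0.95 each). At P21 the nearest genes were Clpb for Gnat2 (0.98), Map6 for Gnb3 (0.99) and Nrcam for Gngt2 (0.99). Nrcam, a neural cell adhesion molecule, was at 14.8 and 15.4 FPKM in wild type, 42.7 and 37.9 FPKM in CrxRip/+, 26.5 and 27.5 FPKM in CrxRip/Rip, 30.9 and 31.3 FPKM in Crx-/- and 46.5 and 51.6 FPKM in Nrl-/-. It has the genotype order of Gngt2 over a narrower range.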

How the data were processed

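RNA from whole retina (5 genotypes, 2 ages, 2 samples of 2 pooled retinas each) was sequenced from directional libraries, per the labels' protocols. Each age has 1 table, deposited by the authors with an FPKM value per sample. The tables also hold the authors' genotype means, the authors' deposited adjusted p-values and their log2 fold changes. DESeq is the only tool named in the submitters' processing notes, with its version not stated. Aligner, annotation and build: not given in the sources used here. Depth is unknown, and reads cannot be recovered from FPKM rounded to 1 decimal, so no counting interval is given and low values such as Gnat2 at P2 are coarse.

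Each age was fitted separately with limma 3.58.1 (R 4.3.3) on log2(FPKM + 1), with all 10 samples, 1 term per genotype, a variance trend and empirical Bayes moderation (5 residual degrees of freedom, prior 2.95 at P2 and 3.06 at P21). There were 10 pairwise comparisons per age, two-sided, with Benjamini-Hochberg adjustment over all genes of the table. With 2 samples a group, calls rest on the spread pooled over genes and genotypes. Subunit ratios were tested by exact permutation. The fit was tested on simulated data.

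The members, the gene lists (cone pathway, rod transducin, transducin handling, other G protein subunits, photoreceptor factors, cell type markers) and the tests were chosen with earlier results of these data known. From each list the rule named the rod transducin genes and up to 3 others per age. The others had the largest difference from wild type in any mutant and a group mean of at least 5 FPKM. Other names are marked as chosen after their values were seen, apart from cell type markers and the genes most like a member. Aipl1 and Crx at P21 were named outside the rule without such a mark. Alternatives were a pseudocount of 0.1, a filter at 5 FPKM, median-of-ratios rescaling, a fit to 2 genotypes alone, no variance trend, each sample left out, a replicate block and, added after the data were seen, the authors' own scaling. The median-of-ratios factors were computed from the genes of each age's table alone, all of them selected as changed. Sequences and positions are from RefSeq (GRCm38.p6) and GENCODE M21.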

Additional observations from a re-analysis of the deposited data

Results flagged for a closer look

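Several members lay on opposite sides of wild type at the 2 ages, with every mutant sample below every wild-type sample at P2 and above it at P21. The difference between ages was not tested, because the tables were scaled separately. In the Crx mutants, samples did not overlap wild type in 52.1% to 74.2% of the P2 table and 87.0% to 93.4% of the P21 table. The share of the 198 genes in both tables that changed sides in this way was not computed. For Gnat2 this held in CrxRip/+ (-2.23 at P2 and 1.08 at P21), in CrxRip/Rip (-2.48 and 0.28) and in Crx-/- (-0.59 and 0.74). For Gnb3 it held in CrxRip/+ (-1.39 and 1.08). For Gngt2 it held in CrxRip/+ (-0.26, not called at P2, and 3.16) and in CrxRip/Rip (-1.66 and 1.88). All values are differences from wild type in log2(FPKM + 1). The P21 value of Gnat2 in CrxRip/Rip was not called under most alternatives, and its P2 call in Crx-/- was fragile, as given above. No group had enough samples for a check of single samples against their group.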

How the results depend on the processing

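Of 60 member differences, 51 were called, 40 of those were called in the same direction under every alternative run, and all 51 kept their direction. The numbers of called members and of ratios that passed stayed within 1.5 times under every alternative. With samples left out, calls against wild type ranged from 6 to 8 at P2 and from 10 to 11 at P21, those between mutants from 13 to 14 at P2 and from 14 to 18 at P21, and passing ratios from 5 to 6. Differences that turned were uncalled ones. Gngt2 in Crx-/- at P2 was between -0.011 (without Crx-/- replicate 2) and 0.289 against wild type, and between -0.267 and 0.033 (without Crx-/- replicate 1) against Nrl-/-, and Gnb3 in CrxRip/Rip at P21 was between -0.151 (without CrxRip/Rip replicate 2) and 0.25 against wild type with a sample left out, and -0.174 with the authors' scaling. The cause was not tested. The main fit did not pair samples by replicate number. Deviations of same-numbered samples correlated between -0.243 and 0.332 at P2 and between -0.299 and 0.235 at P21. Whether same-numbered samples share a batch was not tested. With the replicate block, calls against wild type were 8 at P2 and 11 at P21, and those between mutants 15 at P2 and 16 at P21. The block ended 2 calls at P21, Gnb3 in CrxRip/+ against Crx-/- (-0.392, limma adjusted p = 0.05159) and Gngt2 in CrxRip/+ against Nrl-/- (-0.515, limma adjusted p = 0.05941), and added Gnb3 in Crx-/- against Nrl-/- at P2 (-0.345, limma adjusted p = 0.0319). Median-of-ratios rescaling moved the split of higher and lower calls in the P2 table from 107 and 366 to 188 and 96 in Nrl-/- against wild type and from 52 and 117 to 86 and 57 in Crx-/- against wild type.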

Other observations

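The genes next to the members in GENCODE M21 were read after the member values were seen, and values alone are given. Ampd2, an AMP deaminase gene on the opposite strand, lies 6138 bases from Gnat2 in GENCODE and 101 bases from the longer Gnat2 span in RefSeq. At P2 it was at 11.6 and 10.9 FPKM in wild type, 6.8 and 6.2 FPKM in CrxRip/+, 7.9 and 6.5 FPKM in CrxRip/Rip, 10.6 and 11.3 FPKM in Crx-/- and 15.8 and 14.8 FPKM in Nrl-/-. It was called lower in CrxRip/+ and CrxRip/Rip and higher in Nrl-/-. At P21 it was called higher in all 4 mutants, with a difference of 0.79 for CrxRip/+, 1.11 for CrxRip/Rip, 1.47 for Crx-/- and 2.18 for Nrl-/-.

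P3h3, a collagen prolyl hydroxylase gene listed in the table under the older symbol Leprel2, lies 814 bases from Gnb3 on the same strand and was also called higher in all 4 mutants at P21. Its differences were 1.19, 1.04, 1.20 and 1.24 in the same order of genotypes, so it rose in CrxRip/Rip, where Gnb3 was not called. Abi3, which overlaps Gngt2 on the opposite strand, was at 1.5 and 1.1 FPKM in wild type and 15.2 and 12.9 FPKM in Nrl-/- at P21. It was called higher in CrxRip/+ (1.44), Crx-/- (1.58) and Nrl-/- (2.71), and its CrxRip/Rip difference was 0.29 (limma adjusted p = 0.115). B4galnt2, 20209 bases from Gngt2 in GENCODE, was called higher in all 4 mutants at P21, from a wild-type level of 0.3 and 0.5 FPKM. Of the 7 neighbours looked up, 3 were in neither table and were not analysed here.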
